A study of Mus musculus with 13 samples.

Results

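The Notch pathway and the transcription factors that set secretory fate were followed in the epithelium of colon tumors and of the mucosa beside them. The 10 genes were chosen by symbol, as the receptors Notch1 and Notch2, the ligands Dll1, Dll4, Jag1 and Jag2, the Notch target Hes1, and the fate factors Atoh1, Gfi1 and Neurog3, and all 10 were among the 32285 genes counted. Single-cell RNA-seq libraries were made of 10 colon tumors and of the adjacent mucosa of each of 3 C57BL/6J mice, all ApcMin/+; p16cis/cis and all on the supplemented diet, which is enriched in folic acid, vitamin B12, choline and betaine. ApcMin is a germline truncating allele of Apc that gives rise to intestinal tumors. The p16cis allele is engineered, and its p16 promoter gains DNA methylation with age. Mucosa and tumors thus came from animals of the same germline genotype, and changes in the DNA of tumors were not examined. Mouse A was 24 weeks old and gave tumors 5 to 8 and mucosa 2, mouse B was 23 weeks old and gave tumors 9 and 10 and mucosa 3, and mouse C was 20 weeks old and gave tumors 1 to 4 and mucosa 1. The comparison asked how Notch and secretory fate genes differed between tumor epithelium and the epithelium next to it.

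Signaling through Notch starts when a Delta-like or Jagged ligand on 1 cell binds a Notch receptor on its neighbor. The receptor is cut by an ADAM protease and then by gamma-secretase, and its freed intracellular part joins RBPJ and Mastermind in the nucleus to switch on Hes genes. In the intestinal crypt Hes1 represses Atoh1, so cells that receive the signal become absorptive, and cells that escape it express Atoh1 and ligands and become goblet, enteroendocrine or Paneth cells, with Gfi1 acting downstream of Atoh1 and Neurog3 starting the enteroendocrine branch.

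After filters and doublet removal, 85953 tumor cells and 22542 mucosa cells remained. Clusters with epithelial markers held 16538 tumor cells and 14695 mucosa cells, and their unique molecular identifiers (UMIs, 1 per captured transcript) were summed per library to between 22387862 and 39705400 UMIs in tumors and between 59784774 and 79846012 in mucosa. Levels are UMIs per 1000000 UMIs of such a sum (CPM), and a count of 3 UMIs, taken as the detection floor, was 0.0756 to 0.134 CPM in the tumor sums and 0.0376 to 0.0502 CPM in the mucosa sums. Mucosa was dissociated with EDTA and TrypLE and tumors with an enzymatic tumor kit, so tissue and dissociation cannot be told apart, and stress genes of dissociation summed to 2680 to 6101 CPM in tumor epithelium against 1453 to 1654 CPM in mucosa epithelium. Mitochondrial content differed as well, since under 10% of UMIs were mitochondrial in 9721 of the epithelial cells of tumors (58.8%) and in 12438 of those of mucosa (84.6%). Neutrophil markers (129 to 993 against 6.69 to 21.9 CPM) and macrophage markers (84.2 to 204 against 3.81 to 6.23 CPM) were also higher in the tumor epithelial sums, for 8 of 8 and 11 of 11 genes. The libraries labelled Female (7) and Male (6) all had Y-linked transcripts and almost no Xist, and the sex in the labels was not used. Tumors of 1 mouse share that animal, so the p-values below measure the spread between libraries and not between animals.

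The promoters of 4 genes whose levels did not overlap between the tissues, a receptor and a ligand that were higher in tumors and a pair of fate factors that were lower, are shown as examples with the 300 bases around the start, from 250 before it to 50 after it, taken from RefSeq on GRCm38.p6. The capitals mark the GC box GGGCGG and the E-box CAGCTG on either strand. Notch2 lies at chr3:98013527-98150361 on the plus strand and its promoter at chr3:98013288-98013587, and Jag2 lies at chr12:112907819-112929776 on the minus strand with its promoter at chr12:112929446-112929745. Atoh1 lies at chr6:64729125-64731245 on the plus strand with its promoter at chr6:64728875-64729174, and Neurog3 lies at chr10:62133090-62134763 on the plus strand with its promoter at chr10:62132840-62133139.
Notch2: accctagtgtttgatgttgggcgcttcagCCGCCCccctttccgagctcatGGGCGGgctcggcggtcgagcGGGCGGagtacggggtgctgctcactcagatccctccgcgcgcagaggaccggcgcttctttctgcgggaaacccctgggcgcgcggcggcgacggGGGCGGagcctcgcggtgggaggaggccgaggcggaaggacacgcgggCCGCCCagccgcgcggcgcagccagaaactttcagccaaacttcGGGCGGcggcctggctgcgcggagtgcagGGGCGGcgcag
Jag2: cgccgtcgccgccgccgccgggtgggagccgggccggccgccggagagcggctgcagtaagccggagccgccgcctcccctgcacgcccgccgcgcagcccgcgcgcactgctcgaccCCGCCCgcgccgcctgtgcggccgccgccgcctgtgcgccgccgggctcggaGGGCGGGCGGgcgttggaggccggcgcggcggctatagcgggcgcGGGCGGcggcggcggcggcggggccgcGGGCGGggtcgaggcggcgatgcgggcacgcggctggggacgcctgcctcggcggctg
Atoh1: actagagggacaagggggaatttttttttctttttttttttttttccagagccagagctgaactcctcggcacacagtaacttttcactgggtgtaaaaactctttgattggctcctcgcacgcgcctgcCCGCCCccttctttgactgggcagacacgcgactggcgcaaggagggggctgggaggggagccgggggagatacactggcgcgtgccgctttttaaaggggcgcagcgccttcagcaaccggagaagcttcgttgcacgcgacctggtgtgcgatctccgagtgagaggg
Neurog3: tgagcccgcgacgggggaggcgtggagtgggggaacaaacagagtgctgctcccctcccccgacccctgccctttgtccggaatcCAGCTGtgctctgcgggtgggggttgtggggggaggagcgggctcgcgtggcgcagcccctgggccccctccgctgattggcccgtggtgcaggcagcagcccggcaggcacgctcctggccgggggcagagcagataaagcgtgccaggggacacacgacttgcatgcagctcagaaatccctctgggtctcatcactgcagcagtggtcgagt
The GC box was present 7 times in the Notch2 window, 5 times in the Jag2 window and 1 time in the Atoh1 window, and the Neurog3 window held 1 CAGCTG E-box and no GC box. Notch1 had 5 GC boxes and Dll4 had 2, and Jag1 held 1 CAGCTG. Dll1 and Gfi1 had 2 windows each in the table, of which 1 window of Dll1 (chr17:15376883-15377182) held 1 CAGCTG, while its other window (chr17:15375774-15376073) and both of Gfi1 held neither box. Over all 32851 mouse promoters of this length, 35.7% held a GC box and 16.3% held CAGCTG. The core of the RBPJ site (TGGGAA, in 25.6% of all promoters), and the CACGTG (7.15%) and CACGAG (6.47%) boxes were not found in the windows of the 9 genes that had an entry. Hes1 had none in the table. On the same build Notch1 lies at chr2:26457903-26516663 (minus strand), Dll4 at chr2:119325784-119335962 (plus) and Jag1 at chr2:137081456-137116644 (minus). Dll1 lies at chr17:15367354-15376872 (minus), Hes1 at chr16:30064384-30067796 (plus) and Gfi1 at chr5:107716657-107726036 (minus).

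Across the epithelial sums, 4 of the 10 genes were higher in tumors, 4 were lower and 2 did not pass the test (edgeR quasi-likelihood test on 15538 genes, adjusted p under 0.05). Among all genes tested 34.3% were higher, 30.4% were lower and 64.7% passed in either direction. The median log2 fold change of the 10 genes was -0.10, beside 0.04 over all genes. With library totals in place of the TMM scaling factors the median of all genes moved to 0.32 and their calls from 5329 higher and 4729 lower to 7170 and 3076, while 4 of the 10 genes were higher and 3 lower, and of the 10 only Jag1, which did not pass in either case, changed sign (0.01). Notch1, Notch2, Jag2 and Hes1 were higher in each of the 10 tumors than in the mucosa of the same mouse, and Atoh1, Gfi1 and Neurog3 were lower in each. Values of these 7 genes did not overlap between the tissues, as for 46.6% of all genes tested. Levels in CPM and counts of tumors above or below a mucosa use library totals, whereas the fold changes of the test use TMM factors, which were 0.855 to 0.865 in mucosa and 0.988 to 1.09 in tumors. In a sum over cells, fewer cells of a type and less RNA per cell cannot be told apart, and cell classes are taken up after the levels.

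**Figure D1:**
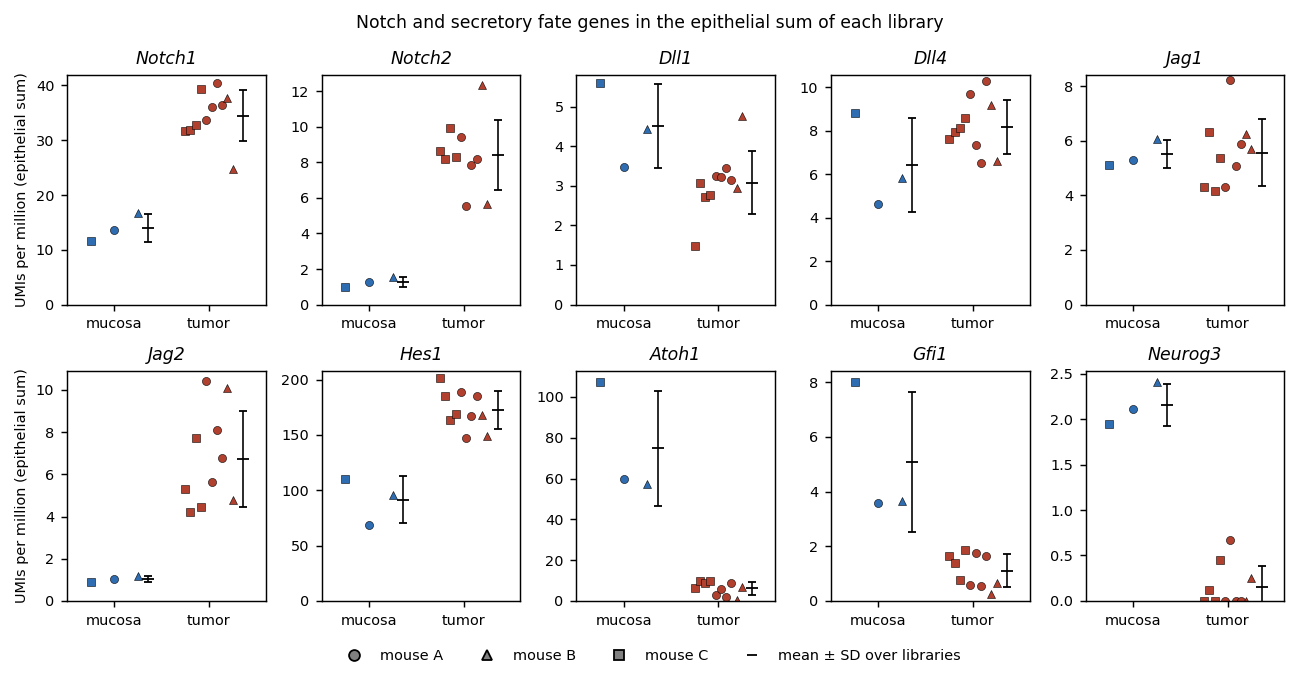
Levels of the 10 genes in the epithelial sum of each library, in CPM on a separate axis for each gene, with mucosa in blue and tumors in red, circles, triangles and squares for mice A, B and C, and bars for the mean and SD of each tissue. Atoh1 spans 57.4 to 107 CPM in the 3 mucosa libraries and 0.617 to 9.69 CPM in the 10 tumors, while the points of Dll1, Dll4 and Jag1 overlap.

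The receptor Notch1, which carries most Notch signaling in intestinal stem and progenitor cells, was at 11.6, 13.7 and 16.7 CPM in mucosa 1, 2 and 3. In tumors it ranged from 24.7 CPM in tumor 10 through a median of 34.8 to 40.5 CPM in tumor 7. Every tumor lay above every mucosa library, and the log2 fold change was 1.02 (SE 0.13, edgeR adjusted p = 2.16e-05). Absorptive-like and goblet-like cells, which have little Notch1, were fewer in tumors, and without both classes the log2 fold change was 0.26 (edgeR adjusted p = 0.0375). Their part in the Notch1 difference was not tested. Notch2, the related receptor, was at 0.987, 1.26 and 1.54 CPM in mucosa and from 5.54 CPM in tumor 6 through a median of 8.25 to 12.4 CPM in tumor 9. The groups were wide apart, with a log2 fold change of 2.45 (SE 0.25, edgeR adjusted p = 3.09e-06). The sums rest on 9901 tumor and 3058 mucosa UMIs of Notch1, and on 2425 and 277 of Notch2.

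Neutrophils were the class with the highest Notch2 level outside the epithelium, at 129 ± 1.9 CPM in tumors (SD over 3 mice). If all neutrophil marker RNA in the tumor epithelial sums had carried Notch2 at the neutrophil ratio, it would have brought 0.0700 to 0.641 CPM, or 0.703 to 7.39% of the Notch2 level of the tumor. The same reckoning with macrophage-like cells gave 0.644 to 2.43% and with T cell-like cells 0.202 to 1.46%, and for Notch1 none of these classes passed 0.848%. Endothelial markers were also higher in the tumor sums, at 4.90 to 21.5 against 2.56 to 3.36 CPM. RNA of endothelial and other classes was not reckoned.

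The ligands did not move together. Jag2, a Jagged ligand, was at 0.903, 1.05 and 1.20 CPM in mucosa 1, 2 and 3, and from 4.22 CPM in tumor 2 through a median of 6.19 to 10.4 CPM in tumor 5. The groups were apart, with a log2 fold change of 2.39 (SE 0.31, edgeR adjusted p = 2.38e-05) from 1910 tumor and 229 mucosa UMIs. Jag1, the second Jagged ligand, was at 5.12, 5.31 and 6.07 CPM in mucosa and from 4.17 CPM in tumor 3 through a median of 5.54 to 8.22 CPM in tumor 6. The mucosa values fell inside the tumor range (log2 fold change -0.27, SE 0.18, edgeR adjusted p = 0.204), and 5 tumors were above and 5 below the mucosa of their own mouse in CPM, or 2 and 8 with the TMM factors applied.

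Dll1, a Delta-like ligand presented by secretory progenitors, was at 5.60, 3.47 and 4.45 CPM in mucosa 1, 2 and 3, and from 1.48 CPM in tumor 1 through a median of 3.1004 to 4.77 CPM in tumor 10. It fell by 0.82 on the log2 scale (SE 0.24, edgeR adjusted p = 0.00849) although the groups overlapped, and 9 of 10 tumors were below their own mucosa. For mice A, B and C the log2 difference in CPM between the tumor mean and mucosa was -0.09, -0.20 and -1.16. On the TMM scale of the test these differences were -0.41, -0.44 and -1.41, so that mouse C had the largest on either scale. Without mucosa 1, the mucosa of mouse C, the log2 fold change was -0.65 with adjusted p = 0.0595, and with library totals in place of TMM scaling it was -0.55 with adjusted p = 0.0547.

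Dll4, the Delta-like ligand that acts with Dll1 in the crypt, was at 8.81, 4.60 and 5.80 CPM in mucosa 1, 2 and 3, and from 6.53 CPM in tumor 7 through a median of 8.03 to 10.3 CPM in tumor 8. The tissues did not differ beyond their spread (log2 fold change 0.07, SE 0.18, edgeR adjusted p = 0.725). In CPM the 6 tumors of mice A and B were above their own mucosa, 5 of them with the TMM factors applied, and the 4 of mouse C were below theirs on either scale, and the tumor means of the 3 mice lay close, at 8.45, 7.89 and 8.06 CPM.

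Hes1, the basic helix-loop-helix repressor that Notch switches on, was at 110, 68.4 and 95.9 CPM in mucosa 1, 2 and 3. It ran from 148 CPM in tumor 6 through a median of 169 to 201 CPM in tumor 1. No tumor fell into the mucosa range, and the log2 fold change was 0.64 (SE 0.14, edgeR adjusted p = 0.00107). Against their own mucosa the tumor means were higher by 1.33, 0.72 and 0.71 on the log2 scale of CPM in mice A, B and C, and by 1.01, 0.47 and 0.46 with the TMM factors applied. Without goblet-like and absorptive-like cells the difference of 0.195 did not pass (edgeR adjusted p = 0.268). These classes have less Hes1 and were fewer in tumors, and their part in the difference was not tested. The sums rest on 49398 tumor and 19373 mucosa UMIs of Hes1, the most of the 10 genes.

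Atoh1, the factor required for goblet, enteroendocrine and Paneth cells, was at 107, 59.7 and 57.4 CPM in mucosa 1, 2 and 3. In tumors it ranged from 0.617 CPM in tumor 9 through a median of 6.64 to 9.69 CPM in tumor 2. It fell by 3.86 on the log2 scale (SE 0.49, edgeR adjusted p = 1.77e-05), and the highest tumor was far below the lowest mucosa. Gfi1, a zinc-finger repressor that holds goblet and Paneth cells to their fate, was at 8.03, 3.57 and 3.67 CPM in mucosa and from 0.264 CPM in tumor 9 through a median of 1.09 to 1.86 CPM in tumor 4. It fell by 2.47 (SE 0.43, edgeR adjusted p = 0.000215). Tumor 9 was the lowest in both genes, and it held 2 goblet-like and 7 Paneth-like cells. Of 8 goblet markers 5 were lower and 1 was higher, with summed levels of 363 to 9519 CPM in tumors against 18309 to 38844 CPM in mucosa. In contrast, 9 of 9 Paneth markers were higher, at 425 to 5769 against 9.25 to 37.6 CPM.

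Neurog3, which starts the enteroendocrine branch, was at 1.94, 2.12 and 2.40 CPM in mucosa 1, 2 and 3 on a total of 467 UMIs. Tumors held 43 UMIs in all, with none in 6 of the 10 tumors, 4 in tumor 2, 6 in tumor 10, 15 in tumor 6 and 18 in tumor 4, so that the tumor median was 0 and the highest value 0.670 CPM. Pooled over libraries, the level in mucosa was 14.4 times that in tumors (95% interval 10.6 to 20.2, for counting error only), and the fitted log2 fold change was -4.10 (SE 0.86, edgeR adjusted p = 0.000971). The 6 tumors without a UMI allow a level of up to their floor of 3 counts, which is below each mucosa value.

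The location of these UMIs among epithelial classes differed between the genes. Classes were named from markers after clustering without the 10 genes and without the other pathway genes. In mucosa, goblet-like cells made up 29.1% of epithelial cells and 31.6% of their UMIs, and held 96.6% of the Atoh1 UMIs, 96.8% of Gfi1, 76.5% of Dll4 and 67.4% of Dll1. They held 21.2% of the Hes1 UMIs, 19.5% of Jag1, 15.3% of Jag2, 7.78% of Notch1 and 6.86% of Notch2. The secretory factors and the Delta-like ligands thus sat mostly in goblet-like cells, and the receptors mostly outside them. Neurog3 UMIs were divided between goblet-like cells (43.3%) and enteroendocrine-like cells (39.8%), which were 1.52% of the cells.

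In tumors, goblet-like cells were 2.93% of epithelial cells (484 of 16538) and Paneth-like cells, marked by lysozyme and defensins, were 4.40% (727). Goblet-like cells held 44.2% of the tumor Atoh1 UMIs and Paneth-like cells 45.4%. For Gfi1 these shares were 14.0% and 37.6%, for Dll1 8.87% and 16.5%, and for Dll4 6.36% and 15.6%. Tumor epithelial-like cells, named for Wnt targets such as Notum, Nkd1 and Axin2, were 27.6% of the cells with 36.6% of all UMIs, and held 43.7% of Notch1, 34.1% of Notch2, 35.1% of Jag2, 41.8% of Hes1, 32.0% of Gfi1 and 2.67% of Atoh1 UMIs. Goblet-like cells, with 2.79% of all UMIs, held 0.434% of Notch1, 0.206% of Notch2, 0.366% of Jag2 and 1.47% of Hes1 UMIs, and cycling cells, with 9.81% of all UMIs, held 18.2% of Jag2. Atoh1 was concentrated in the goblet-like and Paneth-like cells. Of the 43 Neurog3 UMIs in tumors, 60.5% were in 17 enteroendocrine-like cells, 17 UMIs in the 3 such cells of tumor 4 and 9 in the 3 of tumor 6.

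**Figure D2:**
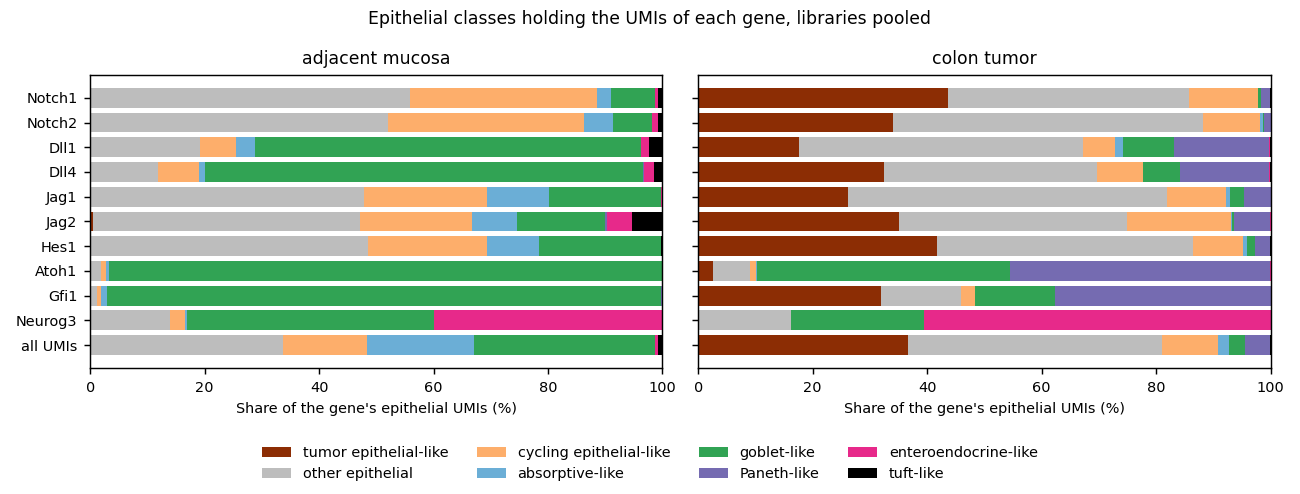
Share of the epithelial UMIs of each gene held by each cell class, in percent, with mucosa libraries pooled on the left and tumor libraries pooled on the right, and the last bar of each panel giving all epithelial UMIs. Goblet-like cells hold 96.6% of mucosa Atoh1 and 44.2% of tumor Atoh1, and Paneth-like cells hold 45.4% of tumor Atoh1.

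Levels within classes used libraries holding 20 or more cells of a class, averaged within each mouse and then over mice (mean ± SD, n = 3 mice unless a class was found in fewer). The cycling and other epithelial classes, the second without a lineage name, came from different clusters in the tissues. Of the other epithelial cells of tumors, 7379 of 9118 were in a cluster led by Gm26917 and Cxcl5 that held 8 mucosa cells, whereas 2865 and 1326 of the 5025 mucosa cells were in clusters led by Aldh1b1 and by Reg3b, which held 19 and 1 tumor cells. The cluster led by Gsdmc4 was shared, with 1719 tumor and 826 mucosa cells. Of the cycling cells, 1130 of 1142 in tumors were in a cluster led by Top2a and 1625 of 1630 in mucosa in one led by Hist1h1b, so that tissue and cluster cannot be told apart in either class outside the shared cluster. Atoh1 in goblet-like cells was 228 ± 35 CPM in mucosa and 100 ± 5.2 CPM in tumors, and it was 57.7 ± 11 CPM in Paneth-like cells of tumors. It was 0.413 ± 0.17 CPM in tumor epithelial-like cells. In mucosa 1, 2 and 3, T cell-like cells, which should lack it, had 1.67, 13.2 and 3.01 CPM of Atoh1, so that mucosa 2 carried most of their mean. Other epithelial cells had 3.995, 4.74 and 3.47 CPM and cycling cells 4.55, 4.60 and 4.52 CPM, above the T cell-like cells in mucosa 1 and 3 and below them in mucosa 2. Absorptive-like cells had 0.896, 2.36 and 1.56 CPM, below the T cell-like cells in each. Gfi1 was 14.99 ± 1.7 CPM in mucosa goblet-like cells, 5.15 ± 1.9 CPM in those of tumors and 8.77 ± 2.2 CPM in Paneth-like cells, below the 31.7 ± 4.2 CPM of mucosa T cell-like cells, which use Gfi1 themselves. T cell-like RNA at the ratio of its markers would bring 1.10 to 13.3% of the tumor epithelial Gfi1.

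Dll4 was highest in Paneth-like cells of tumors, at 35.3 ± 10 CPM, and was 21.4 ± 5.2 CPM in tumor and 15.5 ± 3.0 CPM in mucosa goblet-like cells, which overlapped within their SD. In other epithelial cells it was 7.05 ± 0.37 CPM in tumors and 2.39 ± 0.91 CPM in mucosa, but in the shared Gsdmc4 cluster, with the libraries of a tissue pooled, 1.38 and 1.11 CPM, against 9.54 CPM in the Gm26917 cluster of tumors. Dll1 was 12.6 ± 2.9 CPM in tumor goblet-like cells, 10.2 ± 3.6 CPM in mucosa goblet-like cells and 12.6 ± 1.2 CPM in Paneth-like cells, values that did not differ beyond their spread. Both Delta-like ligands were at their higher levels in the secretory classes of each tissue.

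Hes1 in tumors was 204 ± 15 CPM in tumor epithelial-like cells and 170 ± 26 CPM in other epithelial cells. It was 108 ± 7.1 CPM in Paneth-like and 95.5 ± 32 CPM in goblet-like cells. In mucosa it was 140 ± 51 CPM in other epithelial cells, 140 ± 46 CPM in cycling cells, 57.2 ± 14 CPM in goblet-like cells and 49.8 ± 20 CPM in absorptive-like cells. Enteroendocrine-like cells of mucosa were lowest, at 13.9 ± 9.2 CPM. Absorptive-like cells of tumors had 45.3 ± 7.6 CPM. In tumors the steps from cycling (158 ± 1.9 CPM) to Paneth-like cells and from goblet-like to absorptive-like cells were larger than their SDs, and in mucosa those from the other epithelial and cycling cells to goblet-like cells and from absorptive-like to enteroendocrine-like cells were as well.

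Notch1 was 42.3 ± 3.2 CPM in tumor epithelial-like cells and 42.2 ± 3.1 CPM in cycling cells of tumors, and 31.8 ± 4.0 CPM in cycling cells of mucosa. Goblet-like cells had 4.62 ± 2.0 CPM in tumors and 3.56 ± 1.3 CPM in mucosa. Notch2 was 10.6 ± 0.30 CPM in other epithelial cells of tumors against 1.92 ± 0.27 CPM in mucosa, and 8.32 ± 0.35 against 3.15 ± 0.45 CPM in cycling cells. Each receptor was lower in goblet-like than in cycling cells of its tissue. By library, Notch2 in other epithelial cells ran from 5.64 through 11.3 to 15.7 CPM in tumors against 1.73, 1.80 and 2.23 CPM in mucosa, which did not overlap, while in cycling cells it ran from 2.03 through 8.29 to 12.7 CPM against 2.89, 2.89 and 3.67 CPM, which did. In the shared Gsdmc4 cluster Notch2 was 3.14 CPM in tumors and 1.997 CPM in mucosa with libraries pooled, and it was 13.8 CPM in the Gm26917 cluster of tumors.

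Among epithelial classes Jag2 was highest in cycling cells of tumors, at 12.1 ± 1.4 CPM against 1.40 ± 0.17 CPM in cycling cells of mucosa. Library by library, the cycling cells of tumors had 9.81 to 17.1 CPM with a median of 11.3, and those of mucosa 1.22, 1.40 and 1.56 CPM. Paneth-like cells had 10.4 ± 2.8 CPM and other epithelial cells of tumors 6.401 ± 1.6 CPM against 1.35 ± 0.47 CPM in mucosa. In the shared Gsdmc4 cluster the order of Jag2 was the other way, 0.835 CPM in tumors and 1.55 CPM in mucosa with libraries pooled, on 34 and 21 UMIs, and the Gm26917 cluster of tumors had 8.49 CPM. Jag1 was 8.26 ± 0.60 CPM in cycling and 7.70 ± 0.54 CPM in other epithelial cells of mucosa, against 6.02 ± 0.94 and 6.71 ± 0.43 CPM in tumors. In goblet-like cells of mucosa Jag2 was 0.517 CPM and Jag1 3.41 ± 0.069 CPM. Each Jagged ligand was therefore lower in goblet-like than in cycling cells of mucosa, the reverse of the Delta-like ligands, which had 2.11 CPM (Dll1) and 2.93 CPM (Dll4) in cycling cells.

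Neurog3 reached 152 ± 49 CPM in enteroendocrine-like cells of mucosa and 3.55 ± 2.3 CPM in goblet-like cells. In other epithelial cells of mucosa 1, 2 and 3 it was 2.41, 0.314 and 0.742 CPM, and in T cell-like cells, which should lack Neurog3, 0, 0.550 and 3.32 CPM, on 12 UMIs of which 11 were in mucosa 3. The level in other epithelial cells was above that in T cell-like cells in mucosa 1 and below it in mucosa 2 and 3. Only 27 of the 224 enteroendocrine-like cells of mucosa had a Neurog3 UMI, and 29 of the 4274 goblet-like cells had one. In tumors no UMI was found in the Paneth-like, tumor epithelial-like and cycling cells.

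**Figure D3:**
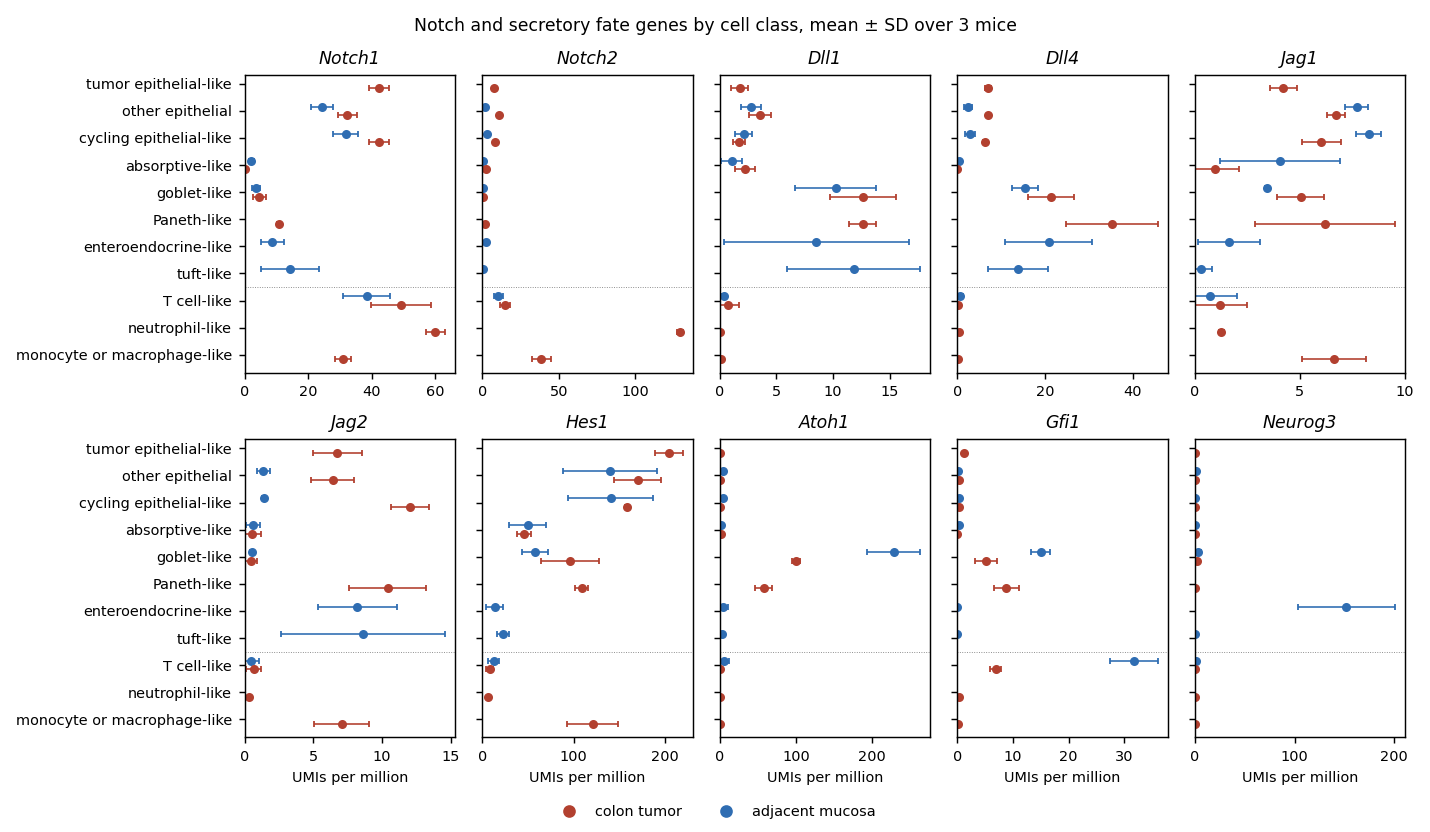
Levels of the 10 genes in each cell class, in CPM on a separate axis for each gene, with tumors in red and mucosa in blue, as the mean over 3 mice with the SD as bars. Atoh1 stands at 228 CPM in mucosa goblet-like cells, 100 CPM in tumor goblet-like cells and 57.7 CPM in Paneth-like cells, and Jag2 at 12.1 CPM in cycling cells of tumors and 1.40 CPM in those of mucosa.

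When goblet-like cells were left out of all epithelial sums, 6 of the 10 genes were higher in tumors and 2 were lower, among 15329 genes of which 34.7% were higher and 29.9% lower. Notch1 (log2 fold change 0.58), Notch2 (2.02), Jag2 (2.10) and Hes1 (0.38, edgeR adjusted p = 0.0419) stayed higher, and Neurog3 stayed lower (-4.33). Dll4 was then at 1.53, 2.37 and 2.85 CPM in the 3 mucosa libraries in rising order, and from 5.70 through a median of 7.68 to 10.2 CPM in tumors. The groups no longer overlapped, and Dll4 was higher by 1.55 on the log2 scale (SE 0.21, edgeR adjusted p = 2.63e-05). Dll1 lost its difference (log2 fold change 0.02, edgeR adjusted p = 0.951), with 1.40, 1.94 and 3.95 CPM in mucosa inside the tumor range of 1.41 to 4.27 CPM. Jag1 fell by 0.51 on the log2 scale (edgeR adjusted p = 0.0222), with 5.97, 6.76 and 7.10 CPM in mucosa against 4.13 to 8.36 CPM in tumors, which overlapped.

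Absorptive-like cells were 22.8% of the epithelial cells of mucosa and 2.84% of those of tumors, and 9 of 10 absorptive markers were lower, with summed levels of 608 to 5704 CPM in tumors against 3185 to 19298 CPM in mucosa. These cells had 2.08 ± 0.80 CPM of Notch1 in mucosa. Without them 4 of the 10 genes were higher and 4 lower, where 34.2% and 30.1% of 15499 genes were, with Notch1 at 0.82 and Hes1 at 0.55 on the log2 scale (edgeR adjusted p = 0.00233). Without goblet-like and absorptive-like cells together, 5 were higher and 2 lower, where 34.8% and 29.8% of 15287 genes were. Notch1 was then at 23.3, 26.8 and 27.9 CPM in mucosa in rising order and from 27.3 through 36.4 to 42.4 CPM in tumors, which overlapped, with a log2 fold change of 0.26 (SE 0.10, edgeR adjusted p = 0.0375). Hes1 was at 94.3, 129 and 180 CPM in mucosa and from 149.99 through 173 to 202 CPM in tumors, and did not pass (0.195, SE 0.15, edgeR adjusted p = 0.268). Without both classes the Hes1 difference thus did not pass and the Notch1 difference was smaller. Notch2 (1.73), Jag2 (1.91) and Dll4 (1.26) were higher and Neurog3 (-4.68) was lower.

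Atoh1 and Gfi1 changed most when goblet-like cells were left out. Atoh1 was at 3.15, 3.39 and 4.02 CPM in mucosa without goblet-like cells and from 0.357 through a median of 2.56 to 8.63 CPM in tumors, with no difference past the threshold (log2 fold change -0.23, edgeR adjusted p = 0.787). Gfi1 turned direction, from 0.213, 0.220 and 0.237 CPM in mucosa to 0.265 through 0.944 to 1.61 CPM in tumors, and was higher by 1.85 on the log2 scale (edgeR adjusted p = 0.0119). These mucosa sums held only 33 Gfi1 UMIs in all, and the tumor sums 277. When Paneth-like cells were left out as well, Atoh1 fell by 2.51 (edgeR adjusted p = 4.10e-05), at 3.11, 3.19 and 4.02 CPM in mucosa and 0.286 through 0.635 to 1.49 CPM in tumors, and Gfi1 was higher by 1.21 without passing (edgeR adjusted p = 0.053). In that set 5 of the 10 genes were higher and 3 lower, where 34.3% and 29.8% of 15327 genes were. T cell-like cells of mucosa had Atoh1 UMIs in 40 of 4267 cells, 24 of the 42 UMIs being in mucosa 2, while those of tumors had none in 2231 cells.

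The tumor epithelial-like cells of tumors, set against all mucosa epithelium, had 4 of the 10 genes higher and 5 lower, where 33.9% and 33.7% of 14272 genes were. Notch1 was higher by 1.26, Notch2 by 2.32, Jag2 by 2.27 and Hes1 by 0.83 on the log2 scale. Dll1 fell by 1.88, Jag1 fell by 0.75 (edgeR adjusted p = 0.00174), Atoh1 fell by 7.60 and Gfi1 fell by 2.60, and no Neurog3 UMI was found in these cells. The mucosa side kept its goblet-like cells, which held 96.6% of Atoh1, 96.8% of Gfi1, 76.5% of Dll4 and 67.4% of Dll1 UMIs there. Tissue and cell class therefore cannot be told apart in this set, here and where it is named below. Gfi1 averaged 1.14 CPM in these tumor cells and 0.223 CPM in mucosa without goblet-like cells, and Dll1 1.61 and 2.43 CPM. Atoh1 averaged 0.453 and 3.52 CPM, and Dll4 7.07 and 2.25 CPM. Dll4 did not pass the test, with a log2 difference of -0.14 (edgeR adjusted p = 0.537).

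**Figure D4:**
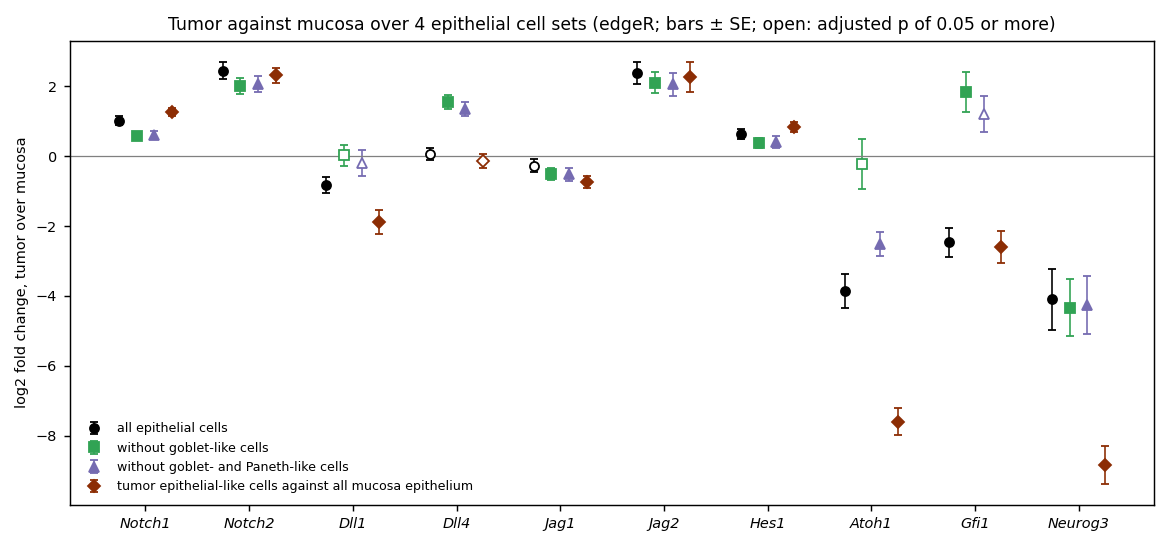
Log2 fold change between tumor and mucosa of each gene with its SE in 4 sets, all epithelial cells, those without goblet-like cells, those without goblet-like and Paneth-like cells, and tumor epithelial-like cells against all mucosa epithelium, where open points did not pass the adjusted p of 0.05. Notch1, Notch2, Jag2 and Hes1 lie above 0 in the 4 sets, Dll4 moves from 0.07 with all cells to 1.55 without goblet-like cells, and Gfi1 moves from -2.47 to 1.85.

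Goblet-like cells were compared with each other in the 8 tumors with at least 20 such cells (473 cells) and the 3 mucosa libraries (4274 cells). Of the 5 genes with enough UMIs for the test, 2 were lower and 0 were higher, where 3.52% and 5.92% of 8017 genes were and 9.44% passed in either direction. Atoh1 was at 195, 225 and 264 CPM in mucosa 1, 2 and 3 and from 91.7 through a median of 100.4 to 111 CPM in tumors. It fell by 1.06 on the log2 scale (SE 0.14, edgeR adjusted p = 0.00039). Gfi1 was at 14.6, 13.5 and 16.8 CPM in mucosa and from 2.96 through 5.36 to 9.25 CPM in tumors, and fell by 1.26 (SE 0.24, edgeR adjusted p = 0.00532). Neither gene overlapped between the tissues, as for 10.3% of the genes tested in this class.

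Hes1 in the same cells was at 73.2, 46.2 and 52.1 CPM in mucosa 1, 2 and 3 and from 41.5 through 97.1 to 187 CPM in tumors. Its log2 fold change of 0.91 did not pass (SE 0.30, edgeR adjusted p = 0.0654), although it was the 1 gene of the 5 with an unadjusted p under 0.05 toward higher values, and it passed with DESeq2 (0.91, adjusted p = 0.044). Dll4 (0.44, SE 0.26, edgeR adjusted p = 0.301) and Dll1 (0.13, SE 0.31, edgeR adjusted p = 0.826) overlapped, with tumors at 12.7 to 41.8 CPM of Dll4 against 13.8, 13.8 and 18.95 CPM, and at 5.76 to 22.1 CPM of Dll1 against 6.99, 9.63 and 14.0 CPM in mucosa. Goblet-like cells thus had a lower level of Atoh1 and Gfi1 in tumors, and no difference in the Delta-like ligands beyond their spread was found.

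The goblet-like class came from the same 2 clusters in both tissues, in different proportions. The cluster led by Zg16 and Clca1 held 306 of the 484 tumor cells, and the cluster led by Retnlb and Agr2 held 3135 of the 4274 mucosa cells. In the Zg16 cluster Atoh1 was 45.4 through 122 to 156 CPM in 6 tumors (274 cells) and 196, 239 and 270 CPM in mucosa (1139 cells). In the Retnlb cluster it was 86.6 through 92.6 to 120 CPM in 5 tumors (139 cells) and 190, 236 and 262 CPM in mucosa. Atoh1 in tumors was below each mucosa value in both clusters, though in the Zg16 cluster alone its difference of -0.83 did not pass (edgeR adjusted p = 0.0727). Neurog3 had no UMI in the Zg16 cluster of mucosa, and was at 1.13, 5.79 and 7.76 CPM in the Retnlb cluster of mucosa 1, 2 and 3.

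The share of goblet-like cells with an Atoh1 UMI, with each cell thinned to 2000 UMIs, averaged 20.5% over tumor libraries and 35.1% over mucosa libraries, with 63 and 133 shallower cells left out. Without thinning the shares were 55.8% and 83.2%, at median depths per library of 4996 to 20736 UMIs in tumors and 10388 to 25196 in mucosa. Paneth-like cells had Atoh1 in 13.5% when thinned, and T cell-like cells of mucosa, which should lack it, in 0.473% at median depths of 1276 to 3619. For Hes1 the thinned share was 19.1% of tumor and 9.97% of mucosa goblet-like cells and 30.5% of tumor epithelial-like cells. Notch2 was found in 2.93% of other epithelial cells of tumors and 0.422% of those of mucosa, which came mostly from different clusters. The shares had the same order as the levels in each of these pairs.

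In absorptive-like cells only Hes1 had enough UMIs for the test, in 7 tumors and 3 mucosa libraries. It was at 34.4, 42.3 and 72.8 CPM in mucosa in rising order and from 29.99 through 46.9 to 56.4 CPM in tumors, and did not differ beyond the spread (log2 fold change 0.05, SE 0.24, edgeR adjusted p = 0.891), in a class where 48.1% of 6437 genes passed. Of the 470 tumor cells 454 were in a cluster led by Clca4b, which held 443 of the 3356 mucosa cells, and within that cluster alone Hes1 was higher by 1.36 (edgeR adjusted p = 0.0168).

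Among the 10 tumors, differences between the 3 mice did not pass the test for any of the 10 genes (edgeR F test of mouse, lowest adjusted p 0.349 for Gfi1), where 0.423% of 15367 genes passed. The number with an unadjusted p under 0.05 was 0, and DESeq2's likelihood ratio test called 0.

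Other genes of the pathway were taken from lists by function. Of 60 tested, 24 were higher in tumor epithelium and 21 lower, beside the 34.3% and 30.4% among all genes. Of the other receptors, Notch3 was higher by 2.496 on the log2 scale and Notch4 did not pass (0.35, edgeR adjusted p = 0.225). Notch4 was called in opposite directions in other sets, higher without goblet-like cells (0.92, edgeR adjusted p = 0.00814) and lower in tumor epithelial-like cells (-1.20, edgeR adjusted p = 0.000223). Neither of the other ligands tested, Dll3 and Dlk1, passed with all cells. Dll3 was higher without goblet-like cells (2.94, edgeR adjusted p = 0.0102), and Dlk1 was lower in tumor epithelial-like cells (-4.32, edgeR adjusted p = 4.42e-06) and without Paneth-like cells (-3.22, edgeR adjusted p = 0.002005). Of 10 genes that cut the receptor, 4 were higher and 5 lower, with a median log2 fold change of -0.01 against 0.04 over all genes. The proteases that make the early cuts were on the higher side, with Furin, which matures the receptor, at 24.8 through 34.7 to 43.9 CPM in tumors against 7.45 to 14.95 CPM in mucosa (1.45, SE 0.22), Adam10 at 0.78 and Adam17 at 0.44. Among subunits of gamma-secretase, Ncstn was higher (0.38) and Aph1b (-0.95), Psen2 (-0.81), Aph1a (-0.70) and Psenen (-0.45) were lower, of which Psenen (-0.18) no longer passed with library totals, and Aph1b (-0.38) and Psenen (-0.28) did not in tumor epithelial-like cells.

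Of 15 modifiers of ligand and receptor, 8 were higher and 1 lower (median 0.49). Neurl1a, an E3 ligase of ligands, was at 3.31 to 14.96 CPM in tumors and 0.253 to 1.17 CPM in mucosa (log2 fold change 3.74, SE 0.50), and its relative Neurl1b went the other way, at 1.37 to 3.69 against 5.96 to 8.78 CPM (-1.80, SE 0.27). The Deltex genes Dtx3 (2.94), Dtx4 (1.00) and Dtx2 (0.75) were higher, as were Mib1 (0.59), the ligase needed for ligand uptake, and the glycosyltransferases Poglut1 (0.50) and Pofut1 (0.28). The 5 genes listed with the nuclear complex were all higher. Rbpj was at 26.0 through 29.8 to 37.1 CPM in tumors against 16.6, 17.5 and 21.3 CPM in mucosa (0.44, SE 0.11). The Mastermind genes were Maml2 (2.55), Maml3 (0.67) and Maml1 (0.54), and Spen (0.59), on the same list, is neither Rbpj nor a Mastermind gene. With the tumors of each mouse summed 4 of the 5 were higher and Maml1 did not pass (edgeR adjusted p = 0.121), nor did Pofut1 (0.29, edgeR adjusted p = 0.0814), and in tumor epithelial-like cells Maml1 (edgeR adjusted p = 0.0581) and Pofut1, with the opposite sign (-0.17, edgeR adjusted p = 0.171), did not pass either.

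The genes listed as targets were mixed, and whether each of them responds to Notch in these cells was not tested. Of 7 tested, Hey1 (5.73) and Hes6 (0.90) were higher, Hes5 (-2.05) and Hes7 (-0.80) were lower, and Nrarp, a feedback inhibitor, did not pass with all cells (-0.59, edgeR adjusted p = 0.0593) and was lower in tumor epithelial-like cells (-1.25, edgeR adjusted p = 0.00154) and without goblet-like cells (-0.97, edgeR adjusted p = 0.00339). Hey1 was nearly absent from mucosa, at a mean of 0.0528 CPM against 3.54 CPM in tumors. Hes7 (-0.51) no longer passed with library totals. With the tumors of each mouse summed 1 gene of this list was higher and 1 lower, as Hes6 (0.85, edgeR adjusted p = 0.0515) and Hes7 (-0.81, edgeR adjusted p = 0.0899) did not pass.

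**Figure D5:**
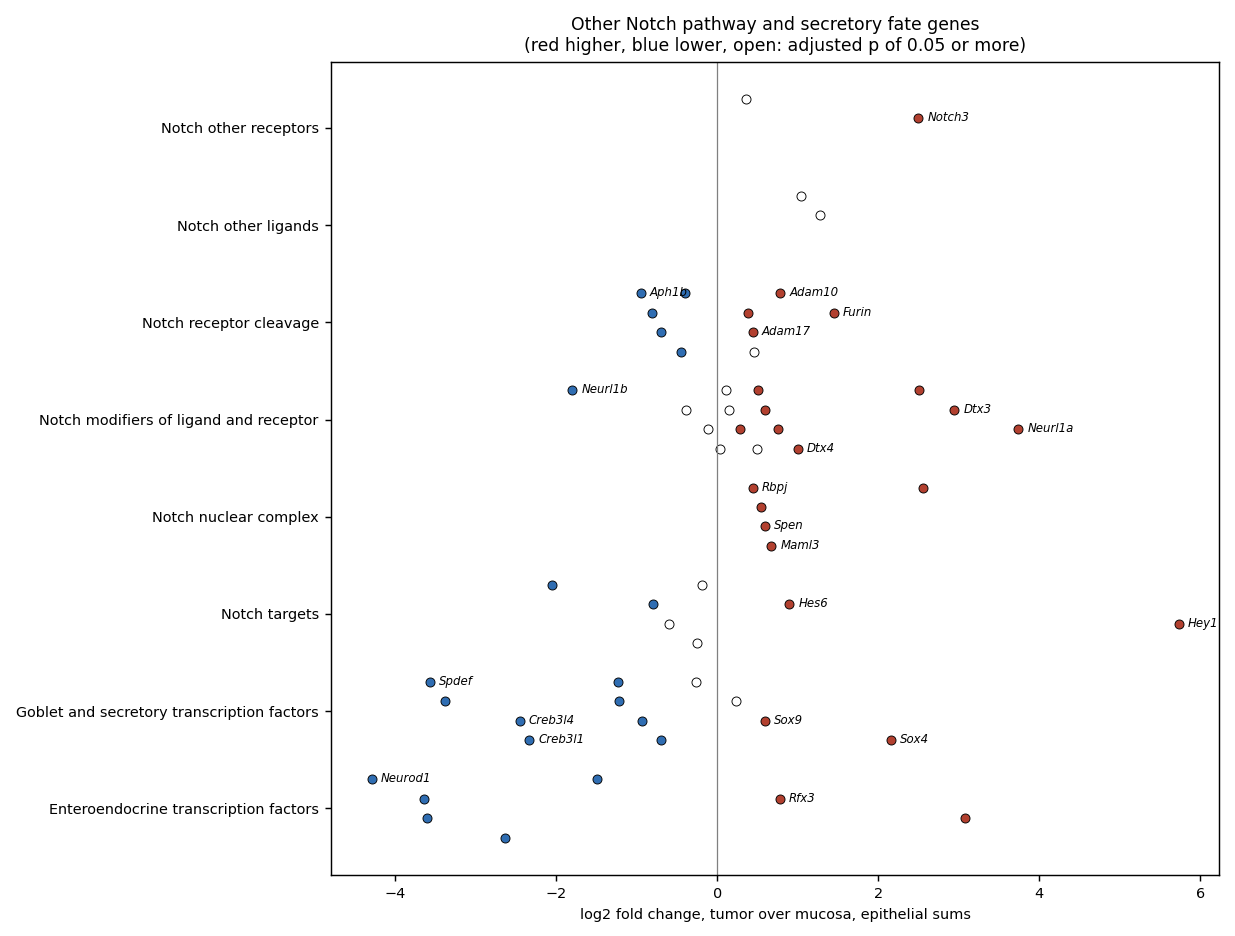
Log2 fold change between tumor and mucosa epithelium of the other pathway genes, with 1 row per list and 1 point per gene, red for higher, blue for lower and open for genes that did not pass the adjusted p of 0.05. The 5 genes listed with the nuclear complex lie between 0.44 and 2.55, and the secretory and enteroendocrine factors lie mostly below 0.

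Of 12 factors of goblet and other secretory cells, 8 were lower and 2 higher (median -1.08). Spdef, which matures goblet cells, was at 2.11 through 13.9 to 20.8 CPM in tumors and 88.6, 91.1 and 185 CPM in mucosa (-3.57, SE 0.47), and Pou2f3 of tuft cells (-3.38), Creb3l4 (-2.45), Creb3l1 (-2.34), Bhlha15 (-1.23), Klf4 (-1.22), Xbp1 (-0.94) and Foxa3 (-0.70) were lower as well. Sox4 was higher, at 219 through 438 to 544 CPM against 71.0, 71.2 and 84.4 CPM (2.16, SE 0.24), and so was Sox9 (0.59). Without goblet-like cells 5 of the 12 were higher, Bhlha15 (1.87), Sox4 (1.79), Sox9 (0.84), Foxa1 (0.82) and Foxa3 (0.79), and 3 were lower, Pou2f3 (-4.16), Klf4 (-1.29) and Creb3l1 (-0.91). In goblet-like cells alone, Creb3l4 was lower (-0.70, edgeR adjusted p = 0.0482) and Spdef did not pass (-0.82, edgeR adjusted p = 0.0532).

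Of 7 enteroendocrine factors 5 were lower, as Neurog3 was. Neurod1, which follows Neurog3, was at 0.038 through 0.226 to 1.16 CPM in tumors and 4.64, 5.22 and 5.29 CPM in mucosa (-4.29, SE 0.55), followed by Nkx2-2 (-3.64), Pax4 (-3.61), Insm1 (-2.64) and Pax6 (-1.50). Isl1 (3.07) and Rfx3 (0.77) were higher. Enteroendocrine hormone and granule markers were lower for 7 of 9 genes in tumor epithelium. Their summed levels overlapped, at 20.2 to 742 CPM in tumors against 471 to 686 CPM in mucosa. Enteroendocrine-like cells numbered 17 in tumors against 224 in mucosa. The part of the number of these cells in the values of the factors and markers was not tested.

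The genes whose levels were most like those of each of the 10 were sought over 59 sums of 8 epithelial classes from 13 libraries, by Pearson's r of log2(CPM + 1). The sums share libraries and depth, and Muc2 is among the markers that named the goblet-like class, so r is a description. Atoh1 was most like Tpsg1 (0.956), the goblet mucin gene Muc2 (0.944) and Slc12a8 (0.938), and Gfi1 was most like Slc12a8 (0.895) and Tpsg1 (0.889), which are shared with Atoh1, and Ccl9 (0.882). Neurog3 was most like Gfra3 (0.976), Rimbp2 (0.945) and the enteroendocrine factor Insm1 (0.940). Enteroendocrine-like cells entered these sums only from mucosa 2 (98 cells) and mucosa 3 (79 cells), so these r values rest on few sums with much Neurog3. Dll4 was most like Foxa3 (0.909), and Dll1 reached at most 0.805, with Kctd14. Notch1 was most like Khdrbs1 (0.954), Notch2 like Flna (0.896), Jag2 like Evl (0.886), Jag1 like Supv3l1 (0.865) and Hes1 like Ppox (0.853).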

How the data were processed

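The authors counted UMIs per gene and cell barcode with Cell Ranger (6.0.0 in the submitters' processing notes, mm10) from 10x 3′ v3.1 libraries and deposited the raw counts of each of the 13 libraries. Tags sit at the 3′ end, so levels are not compared between genes. Labels gave tissue, age and the animal.

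Of 137591 barcodes, 108495 that met a minimum of 500 UMIs and of 200 genes, with mitochondrial UMIs below 25%, remained after doublets were removed (highest neighbor scores, 0.8% per 1000 barcodes). At most 61 barcodes (0.561%) were shared by 2 libraries. Log values scaled to 10000 UMIs over 2000 variable genes, which excluded the 10 genes and 68 pathway genes, gave 30 components, a graph of 20 neighbors and 35 Leiden clusters (resolution 1, seed 11). The cluster with both enteroendocrine and tuft markers was split into 2 by the same method (resolution 0.3), which gave 36, of which 15 were epithelial. Classes were named from marker lists, with a threshold of at least 3 markers that was set after cluster profiles were seen. "Other epithelial" cells met no class.

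UMIs were summed per library and class, and tested with edgeR's quasi-likelihood test (TMM, filterByExpr, Benjamini-Hochberg over all genes, threshold 0.05). Classes needed 20 cells per library. Alternatives were DESeq2, its size factors, library totals, no count filter, stricter cell filters, a marker gate, summed tumors, each library left out, the mouse as a block, cells without the goblet-like class and tumor epithelial-like cells alone. Adding a shallow unnamed cluster, leaving out Paneth-like or absorptive-like cells and taking single clusters were added after the data were seen. Pairing comes from the animal, not from replicate numbers. For each animal the deviations of its tumors and of its mucosa from the tissue means had a correlation over 15544 genes of 0.107 (A), 0.0828 (B) and 0.199 (C).

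The 10 genes, the lists and the markers were chosen with earlier results of these data known. Besides the 10, the named pathway genes are up to 3 per list and direction with the largest fold change among those called, not overlapping and at 5 CPM or more in the higher tissue, and other list members are given as log2 fold changes and were named after their values were seen. A result for 1 list member is not reported here. Likeness used sums of at least 50 cells and genes at a mean of 5 CPM or more. Intervals cover counting error only. The test scripts were tested on simulated data. Python 3.11.15 (numpy 2.4.6, scipy 1.17.1, pandas 2.3.3, igraph 0.11.9, leidenalg 0.10.2, matplotlib 3.10.9) and R 4.3.3 (edgeR 4.0.16, DESeq2 1.42.0) were used.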

Additional observations from a re-analysis of the deposited data

Results flagged for a closer look

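Jag1 in the epithelial sums had its highest tumor value in tumor 6, at 8.22 CPM, set off from the other 9 tumors by 0.471 of the whole range. Among the other epithelial cells of tumors the highest Jag1 value, 10.2 CPM, was also set off, by 0.505 of the range. These were 2 of 42 groups checked for a library far from the rest, of which chance flags about 1 in 20, or 2.1.

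Dll4 went in different directions by mouse in the epithelial sums. The log2 difference between the tumor mean and the mucosa of the same animal was 0.88 in mouse A and 0.44 in mouse B, where each tumor was above its mucosa, and -0.13 in mouse C, where each was below. These differences are in CPM, and with the TMM factors of the test applied they were 0.55, 0.19 and -0.38, with 1 of the 2 tumors of mouse B above its mucosa. The difference between mice was not tested, since each has 1 mucosa library.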

How the results depend on the processing

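Notch1, Notch2, Jag2 and Neurog3 kept direction and call in the epithelial sums under the 29 alternatives run, and Hes1 under 28. Without goblet-like cells, 2 of the 10 genes were lower instead of 4. Of the genes called with all cells, Gfi1 (1.85), Bhlha15 (1.87) and Foxa3 (0.79) passed in the other direction. Dll1 (0.022), Creb3l4 (0.59) and Spdef (0.36) changed sign without passing, and Atoh1 (-0.23), Xbp1 (-0.14), Hes7 (-0.16) and Psenen (-0.44) kept their sign without passing. Dll4 (1.55), Jag1 (-0.51), Dll3 (2.94), Notch4 (0.92), Nrarp (-0.97), Lfng (1.08) and Foxa1 (0.82) passed here but not with all cells. Without goblet-like and Paneth-like cells, Bhlha15 (0.69) and Foxa3 (0.69) passed in the other direction, while Gfi1 (1.21) and Creb3l4 (0.042) changed sign without passing. Dll1 (-0.19) did not pass there, and Dll4 (1.35) and Jag1 (-0.52) did. Without goblet-like and absorptive-like cells, 2 of the 10 genes were lower, and Dll4 (1.26) and Jag1 (-0.64) passed. Hes1 (0.195), Atoh1 (-0.40), Dll1 (-0.19), Dtx4 (0.33), Poglut1 (0.23), Pofut1 (0.199), Rfx3 (0.28), Hes7 (-0.41), Klf4 (-0.021), Psenen (-0.38) and Xbp1 (-0.096) did not pass. Gfi1 (1.99), Bhlha15 (1.90) and Foxa3 (0.499) passed in the other direction, Creb3l4 (0.32) and Spdef (0.18) changed sign without passing, and Notch1 was 0.26. Jag1 also passed in tumor epithelial-like cells (-0.75), and Dll1 did not with library totals (-0.55). These sets leave out cells by construction, and the cause of the change with library totals was not tested.

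In goblet-like cells, 1 gene was higher, Hes1, with DESeq2 (0.91, adjusted p = 0.044), without the count filter (0.79, edgeR adjusted p = 0.0374), without tumor 2 (0.99, edgeR adjusted p = 0.0261) and without tumor 3 (0.99, edgeR adjusted p = 0.0463). Atoh1 did not pass in the Zg16 cluster alone (-0.83), where 0 genes were lower, and without mucosa 3 Gfi1 (-1.17, edgeR adjusted p = 0.0507) did not, leaving 1 lower. In absorptive-like cells 1 gene was higher and 2 lower without the count filter, and 1 was higher, Hes1 (1.36), in the Clca4b cluster alone. For scale, the main fits called 23.4% of all genes higher and 24.8% lower in absorptive-like cells, and 5.92% and 3.52% in goblet-like cells. The cause of the changes in calls was not tested.

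Leaving out each library in turn gave 4 higher and 3 to 4 lower genes, 21 to 25 higher and 19 to 21 lower pathway genes, and log2 fold changes of 0.89 to 1.16 (Notch1), 2.29 to 2.61 (Notch2), -0.98 to -0.65 (Dll1), -0.12 to 0.36 (Dll4), -0.34 to -0.20 (Jag1), 2.28 to 2.49 (Jag2), 0.46 to 0.78 (Hes1), -4.03 to -3.52 (Atoh1), -2.67 to -1.99 (Gfi1) and -4.64 to -3.93 (Neurog3). In goblet-like cells it gave 0 to 1 higher and 1 to 2 lower genes, with -0.09 to 0.44 (Dll1), 0.27 to 0.60 (Dll4), 0.73 to 1.13 (Hes1), -1.15 to -0.94 (Atoh1) and -1.38 to -1.15 (Gfi1), and in absorptive-like cells -0.15 to 0.35 (Hes1). With the mouse as a replicate block, 4 of the 10 genes were higher and 4 lower, pathway genes were 24 higher and 23 lower, goblet-like cells had 0 higher and 2 lower genes, and the block changed no call of the 10 genes. For scale, the main fit in all epithelial cells called 34.3% of all genes higher and 30.4% lower.

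With at least 50 cells per library and class, levels moved beyond their SD for tumor Dll1 (Paneth-like 8.45, goblet-like 9.59 CPM), Notch1 (Paneth-like 15.5, goblet-like 6.77), goblet-like Notch2 (0.974), and Neurog3 (3.39), and tuft-like Atoh1 (0), Jag1 (0.881) and Notch2 (1.76). Shares of goblet-like cells with a UMI, thinned to 1000 UMIs and then unthinned, were 10.6% and 55.8% (tumor Atoh1), 20.2% and 83.2% (mucosa Atoh1), 1.68% and 19.9% (mucosa Dll4), and 5.23% and 46.7% (mucosa Hes1), and unthinned 19.01% (tumor Dll4) and 52.6% (tumor Hes1), since a thinner draw finds fewer UMIs. Depth limits how low a Neurog3 level can be measured in the 6 tumors without a UMI, though their floor is below each mucosa value. It also limits the receptors and Jagged ligands in goblet-like cells, which had too few UMIs for the test.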
